A study of Mus musculus with 16 samples.

Results

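The epithelial junction and keratin genes are 36 mouse genes whose proteins hold epithelial cells together, seal the space between them, form their intermediate filaments or keep their epithelial state. They were chosen by symbol, and each was read from the probe sets that the platform's annotation assigns to that symbol alone. Of the 36 genes, 35 were measured, by 51 of the 28898 probe sets that carry 1 gene, among 17097 genes tested in all. Pkp3, a desmosomal plakophilin, lay on none of these probe sets and is not analysed here. By their labels, the colon cells came from 4 mice and were sorted into 4 populations. There were 16 Affymetrix arrays, 1 per population and mouse number. All mice had the genotype Gli1CreERT2-ZsGreen on a C57BL/6 strain background, and their age is not given in the sources used here. All received 1 mg of tamoxifen into the peritoneum on 5 days in a row, and colons were taken on day 6. No population came from an untreated or reporter-free animal. Every population was sorted as fibroblasts, that is, as cells positive for the surface protein gp38 and negative for Epcam, CD45 and CD31. Reporter-high cells (Sca1+Gli1ZsGreenhigh), reporter-dim cells (Sca1+Gli1ZsGreendim) and Sca1+ ZsGreen-negative cells (Sca1+Gli1ZsGreen-) carried the surface protein Sca1. The remaining population (Sca1-Gli1ZsGreen-) lacked both it and the reporter, and its cells are called Sca1- cells here. The Cre recombinase is driven from Gli1, a transcription factor gene switched on by Hedgehog signalling, and is active only with tamoxifen, so the ZsGreen label records Gli1 expression at the time of the injections.

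Tight junctions close the space between neighbouring epithelial cells. They are built from claudins, the MARVEL proteins around occludin, and scaffold proteins such as the ZO proteins. Adherens junctions and desmosomes give mechanical strength, E-cadherin acting in the first and desmosomal cadherins, which are linked through plakoglobin, plakophilins and plakins to keratin filaments, in the second. Colonocytes use all of these, with keratins 8, 18 and 19 as their main filaments, whereas fibroblasts are known for vimentin filaments and for cadherins other than E-cadherin.

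Levels are array signals on a linear scale, recovered from the deposited standardized scores, and a signal is compared only with signals of the same probe set. Differences are log2 differences ± SE between means of 4 arrays per population. They and their adjusted p-values come from limma, with Benjamini-Hochberg adjustment over 17097 genes and a threshold of 0.05, and a gene that passes is said to rise or fall. Array medians lay between 661 and 686, and the number of arrays limits the precision. Signals hold the array background, so differences of dim genes are understated. Of the 35 members, 34 were above the highest nonspecific control, 234 to 488 per array, on all 16 arrays. The exception was Cldn8, which was above it on 3 of 4 reporter-high arrays. The Epcam- sort was made on protein. At the RNA level Epcam was above the controls on all 16 arrays, and in every population all 12 of the fibroblast markers measured were above them too. Ly6a, which encodes Sca1, was on no single-gene probe set, so that sort gate was not checked here. Gli1 rose in reporter-high cells against Sca1+ ZsGreen-negative cells by 1.27 ± 0.21 on the log2 scale (adjusted p = 0.00053 with limma).

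The arrays labelled mouse 2 went against their shared label. The female transcript Xist had signals of 487 and 424 on the reporter-high and reporter-dim arrays with that number, against 18116 and 19209 on its Sca1+ ZsGreen-negative and Sca1- arrays. The Y-linked Eif2s3y had 3111 and 3095 on the first pair, against 146 and 197 on the second. Arrays with the male pattern therefore numbered 2 of 4 in reporter-high and in reporter-dim cells and 1 of 4 in each ZsGreen-negative population. Counts of members that passed between populations, and the differences of a few members, are also given without the arrays labelled mouse 2. The other differences, the marker lists and the related genes are given with all arrays only. Values that use the mouse number rest on this label.

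In reporter-high cells, nearly all epithelial junction and keratin genes had lower signals than in Sca1+ ZsGreen-negative cells. Of 35 members 33 fell, 1 rose (Ppl, which encodes periplakin) and 1 did not pass (Tjp1, which encodes ZO-1). Of all 17097 genes, 13.9% fell and 17.0% rose in this comparison. The median member difference was -2.10 on the log2 scale, 4.28-fold lower, against a median of 0.00 over all genes. The F test over the 4 populations was passed by 34 members and by 32.3% of all genes. For 33 members all 4 reporter-high arrays lay below all 4 Sca1+ ZsGreen-negative arrays, as they did for 14.9% of all genes. Without the arrays labelled mouse 2, 32 members fell and 0 rose, with a median of -1.87. Of all genes, 7.89% fell and 8.10% rose in that fit, and Cldn12, Ppl and Tjp1 did not pass. With the arrays scaled to the hybridization controls in place of the deposited scaling, 31 members fell and 2, Ppl and Tjp1, rose, where 5.18% of all genes fell and 60.0% rose.

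**Figure D1:**
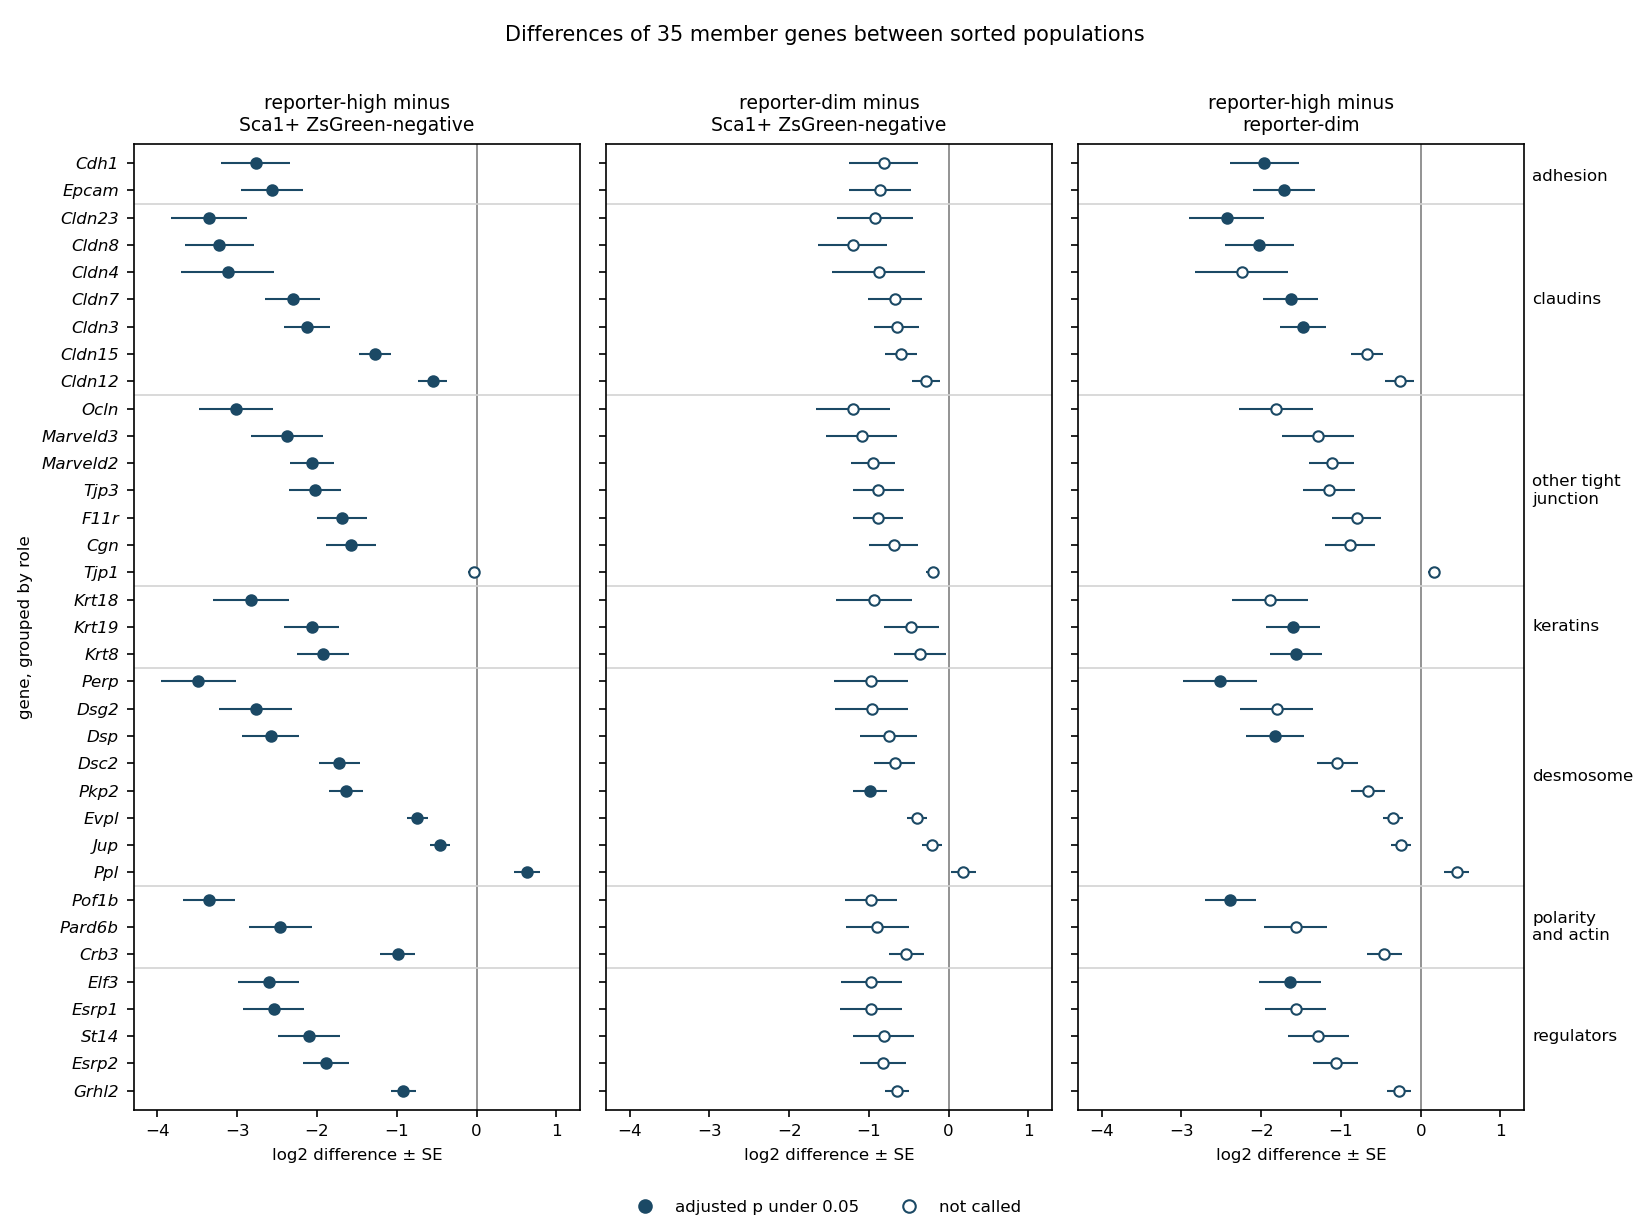
Log2 differences (± SE, n = 4 arrays per population) of the 35 measured members, grouped by role, in 3 comparisons: reporter-high against Sca1+ ZsGreen-negative, reporter-dim against Sca1+ ZsGreen-negative, and reporter-high against reporter-dim cells. Filled points passed an adjusted p of 0.05: 34, 1 and 12 members, and Ppl is the one filled point above 0.

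Markers of absorptive colonocytes and goblet cells moved with the members, and other epithelial markers did so less. All 6 absorptive colonocyte markers measured fell in reporter-high against Sca1+ ZsGreen-negative cells, with a median of -2.13, and so did all 5 goblet cell markers, with a median of -2.53. Of 5 crypt base markers 2 fell, with a median of -0.30. Of 6 enteroendocrine and tuft cell markers 3 fell and 1 rose, with a median of -0.28. Of the 12 fibroblast markers 7 rose and 0 fell, with a median of 0.59. Of all genes, 13.9% fell and 17.0% rose in this comparison. The summed signal of the 6 colonocyte markers was 16702 to 66720 in reporter-high, 73753 to 125074 in reporter-dim, 110050 to 158661 in Sca1+ ZsGreen-negative and 114645 to 179735 in Sca1- cells. For the 5 goblet markers the sum was 8204 to 32647 in reporter-high, 21291 to 83292 in reporter-dim, 47321 to 118988 in Sca1+ ZsGreen-negative and 41542 to 109979 in Sca1- cells. None of the colonocyte or goblet markers was at array background in any population. The crypt base marker Myb was at background in reporter-high and reporter-dim cells, and the tuft cell marker Pou2f3 in every population but reporter-high. The crypt base sum was 3489 to 3898 in reporter-high and 5344 to 7621 in Sca1+ ZsGreen-negative cells. For the enteroendocrine and tuft cell markers it was 7568 to 10289 and 7360 to 13719. The summed signal of the 12 fibroblast markers was 414303 to 433283 in reporter-high, 397816 to 445541 in reporter-dim, 328098 to 399028 in Sca1+ ZsGreen-negative and 245167 to 377182 in Sca1- cells. The ratio of 3' to 5' signals of the control transcript Actb, a sign of RNA quality, was 1.24 ± 0.03 in reporter-high cells, 1.15 ± 0.07 in reporter-dim, 1.11 ± 0.01 in Sca1+ ZsGreen-negative and 1.11 ± 0.05 in Sca1- cells (SD, n = 4 each). For Gapdh the ratio was highest in reporter-dim cells, 1.02 ± 0.01, and was 1.00 ± 0.01 in reporter-high cells. It was 0.95 ± 0.01 in Sca1+ ZsGreen-negative and 0.92 ± 0.02 in Sca1- cells (SD, n = 4 each). The part of these markers and of these ratios in the members' differences was not tested. In sorted bulk samples, fewer cells of a type and less RNA per cell cannot be told apart.

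Both members of the adhesion group fell. Epcam encodes the epithelial surface protein against which the cells were sorted, and which binds and stabilises claudins. It had signals of 2010, 1698, 6869 and 3312 in reporter-high cells of mice 1 to 4. The signals were 6249, 7773, 13478 and 13623 in reporter-dim, 12855, 18063, 20060 and 20560 in Sca1+ ZsGreen-negative and 10080, 18924, 21786 and 18565 in Sca1- cells. The reporter-high array of mouse 3 was the highest of its population, yet every reporter-high array lay below every ZsGreen-negative array. Epcam was 5.93-fold lower in reporter-high than in Sca1+ ZsGreen-negative cells, a difference of -2.57 ± 0.39 (adjusted p = 0.000365 with limma). It was -2.29 ± 0.47 without mouse 2 (adjusted p = 0.0144 with limma).

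Cdh1, which encodes E-cadherin, the core of epithelial adherens junctions, showed the same order of populations. Its signals were 2001, 2133, 9806 and 4285 in reporter-high and 9084, 11196, 19231 and 20912 in reporter-dim cells. They were 18746, 25307, 27393 and 29937 in Sca1+ ZsGreen-negative and 14625, 27476, 32423 and 28421 in Sca1- cells. Every reporter-high array lay below every ZsGreen-negative array. Cdh1 fell by 2.77 ± 0.43 in reporter-high against Sca1+ ZsGreen-negative cells (adjusted p = 0.000425 with limma), and had -2.50 ± 0.54 without mouse 2 (adjusted p = 0.0165 with limma).

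The bases before the transcription starts of the members were searched for the E-box CACCTG, read as CAGGTG on the other strand. This E-box is known to be bound by ZEB and SNAI repressors of E-cadherin. RefSeq promoter sequences (GRCm38.p6) were at hand for 20 of the 35 measured members, not including Cdh1. In the 250 bases before the start, 12 of the 20 (60.0%) held the E-box in at least 1 of their windows, against 19.9% of the 13605 tested genes with a promoter sequence. By window rather than by gene the shares were 51.9% of 27 and 17.1% of 17065. All 12 members with a match fell in reporter-high against Sca1+ ZsGreen-negative cells, and so did 7 of the 8 without one, which were Cgn, Cldn3, Cldn12, Cldn15, Dsp, Jup and Marveld2, while Tjp1 did not pass. A match is a stretch of letters and was not tested for binding. The part of the E-box in the members' differences was not tested. Printed are windows of an adhesion, a claudin and a keratin gene that fell and hold a match, of the polarity gene with most matches, of Cgn, which fell and holds none, and of Tjp1, which did not pass and holds none. Each is printed 5' to 3' on the gene's own strand, with the E-box in capitals in either orientation.
Epcam, plus strand of chr17:87635729-87635978: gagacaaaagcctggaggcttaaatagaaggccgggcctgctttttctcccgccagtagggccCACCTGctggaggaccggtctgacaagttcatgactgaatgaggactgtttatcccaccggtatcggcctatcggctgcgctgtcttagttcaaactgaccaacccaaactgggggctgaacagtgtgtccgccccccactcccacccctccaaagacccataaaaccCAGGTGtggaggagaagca
Cldn4, minus strand of chr5:134946935-134947184: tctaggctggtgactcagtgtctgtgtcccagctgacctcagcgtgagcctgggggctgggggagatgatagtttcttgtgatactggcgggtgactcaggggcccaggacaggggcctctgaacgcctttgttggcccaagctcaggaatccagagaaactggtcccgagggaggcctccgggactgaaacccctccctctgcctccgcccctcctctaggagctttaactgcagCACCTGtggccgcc
Krt8, minus strand of chr15:102004343-102004592: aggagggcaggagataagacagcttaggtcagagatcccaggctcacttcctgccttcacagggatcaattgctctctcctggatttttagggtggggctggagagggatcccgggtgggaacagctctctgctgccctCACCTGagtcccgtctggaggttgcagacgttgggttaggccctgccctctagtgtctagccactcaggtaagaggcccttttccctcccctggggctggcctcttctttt
Crb3, plus strand of chr17:57061951-57062200: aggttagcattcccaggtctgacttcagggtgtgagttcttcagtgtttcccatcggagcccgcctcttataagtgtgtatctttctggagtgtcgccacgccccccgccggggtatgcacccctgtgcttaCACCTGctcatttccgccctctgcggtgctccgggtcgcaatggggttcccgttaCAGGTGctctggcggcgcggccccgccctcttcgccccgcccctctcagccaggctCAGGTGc
Cgn, minus strand of chr3:94786483-94786732: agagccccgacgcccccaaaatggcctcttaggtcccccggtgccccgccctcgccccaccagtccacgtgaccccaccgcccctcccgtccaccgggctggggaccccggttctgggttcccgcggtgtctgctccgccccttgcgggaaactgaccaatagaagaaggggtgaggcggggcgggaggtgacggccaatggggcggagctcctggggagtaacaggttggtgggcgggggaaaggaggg
Tjp1, minus strand of chr7:65371245-65371494: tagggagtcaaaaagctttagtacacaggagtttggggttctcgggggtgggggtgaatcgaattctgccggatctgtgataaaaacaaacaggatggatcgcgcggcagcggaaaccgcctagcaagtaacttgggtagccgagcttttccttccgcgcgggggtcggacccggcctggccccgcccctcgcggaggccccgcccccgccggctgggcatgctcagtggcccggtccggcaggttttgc
Counting back from the start, with -1 as the base before it, the E-box begins at -187 and -19 in Epcam and at -14 in Cldn4. It begins at -111 in Krt8 and at -118, -63 and -7 in Crb3.

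All 7 claudins measured fell in reporter-high against Sca1+ ZsGreen-negative cells, with a median of -2.31. Claudins are the membrane proteins that line tight junction strands and set which ions pass between cells. Cldn23 had the largest difference among the claudins that were above the nonspecific control on every array. Its signals were 460, 392, 2584 and 1009 in reporter-high and 2712, 3675, 7371 and 5455 in reporter-dim cells. They were 7802, 8471, 9438 and 8235 in Sca1+ ZsGreen-negative and 5412, 10312, 12180 and 8380 in Sca1- cells. The Sca1+ ZsGreen-negative arrays lay close together, and the reporter-high arrays of mice 1 and 2 were the dimmest. Cldn23 was 10.2-fold lower in reporter-high cells, a difference of -3.35 ± 0.47 (adjusted p = 0.000276 with limma).

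Cldn12 had the smallest difference of the claudins. Its signals were 2345, 1954, 2813 and 2775 in reporter-high and 2402, 2621, 2907 and 4070 in reporter-dim cells, against 2880, 3515, 3731 and 4337 in Sca1+ ZsGreen-negative cells. In Sca1- cells they were 3220, 3364, 4020 and 4829. All reporter-high arrays lay below the Sca1+ ZsGreen-negative arrays, by little. The difference was -0.55 ± 0.18 (adjusted p = 0.0302 with limma), and it did not pass without the arrays of mouse 2 or of mouse 3, or with the arrays scaled to the hybridization controls. Cldn4 averaged 1478 ± 1211 in reporter-high cells, 6976 ± 5157 in reporter-dim, 10973 ± 4966 in Sca1+ ZsGreen-negative and 7302 ± 3161 in Sca1- cells (SD, n = 4 each). Cldn8, known as a barrier claudin of the distal colon, averaged 390.2 ± 181 in reporter-high, 1749 ± 1026 in reporter-dim and 3435 ± 588 in Sca1+ ZsGreen-negative cells. Cldn4 fell by 3.12 ± 0.58. The fitted difference of Cldn8 was -3.22 ± 0.43, but only 3 of its 4 reporter-high arrays were above the nonspecific control, so its size is understated and has no rank among the claudins. Cldn3 fell by 2.13 ± 0.29 and Cldn7, whose protein binds Epcam, fell by 2.31 ± 0.34. Cldn15, which encodes a claudin that forms a cation pore in the gut, fell by 1.27 ± 0.20.

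Among the other tight junction genes 6 of 7 fell, with a median of -2.03. Ocln encodes occludin, a MARVEL-domain membrane protein of the strands. Its signals were 393, 339, 893 and 519 in reporter-high and 912, 1438, 2061 and 3516 in reporter-dim cells. They were 2729, 3578, 4861 and 5571 in Sca1+ ZsGreen-negative and 1319, 4222, 5546 and 3921 in Sca1- cells. Reporter-high arrays all lay below the ZsGreen-negative arrays. Ocln was 8.09-fold lower in reporter-high than in Sca1+ ZsGreen-negative cells, a difference of -3.02 ± 0.46 (adjusted p = 0.000386 with limma).

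The other MARVEL-domain genes followed. Marveld2 (tricellulin, at corners where 3 cells meet) fell by 2.06 ± 0.28 and Marveld3 fell by 2.37 ± 0.45. Marveld2 averaged 421 ± 111 in reporter-high, 910.2 ± 236 in reporter-dim and 1762 ± 476 in Sca1+ ZsGreen-negative cells (SD, n = 4 each). F11r, which encodes the junctional adhesion molecule JAM-A, fell by 1.69 ± 0.31. The scaffold genes differed among themselves. Tjp3 (ZO-3) fell by 2.03 ± 0.32 and Cgn, which encodes cingulin and links junctions to actomyosin, fell by 1.57 ± 0.31.

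Tjp1 encodes ZO-1, a scaffold that many cell types other than epithelium are known to express. Its signals were 4219, 4450, 4286 and 4039 in reporter-high and 3438, 3926, 3607 and 4211 in reporter-dim cells. They were 4538, 3914, 4199 and 4758 in Sca1+ ZsGreen-negative and 4245, 4146, 4537 and 3867 in Sca1- cells. All populations overlapped. The difference between reporter-high and Sca1+ ZsGreen-negative cells was -0.03 ± 0.08 (adjusted p = 0.814 with limma), and the F test over the 4 populations gave an adjusted p of 0.217. Under hybridization control scaling Tjp1 rose by 0.35 ± 0.13 (adjusted p = 0.0233 with limma). That scaling moved the median of all genes in this comparison by 0.38.

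The 3 keratin genes of simple epithelium fell together. Krt18, whose protein pairs with keratin 8, had signals of 1721, 1367, 7197 and 3024 in reporter-high and 5519, 7506, 15552 and 14866 in reporter-dim cells. They were 13112, 20050, 23532 and 20722 in Sca1+ ZsGreen-negative and 8220, 18917, 22499 and 18228 in Sca1- cells. The reporter-high arrays lay below all ZsGreen-negative arrays, with mouse 3 the nearest to them. Krt18 was 7.07-fold lower in reporter-high than in Sca1+ ZsGreen-negative cells, a difference of -2.82 ± 0.48 (adjusted p = 0.000639 with limma). Krt8 had signals of 7756, 5848, 26395 and 12692 in reporter-high and 27908, 27016, 42417 and 36523 in reporter-dim cells. They were 36966, 43289, 44595 and 44004 in Sca1+ ZsGreen-negative and 35652, 41256, 48839 and 42302 in Sca1- cells. The ZsGreen-negative arrays varied little and the reporter-high arrays a great deal. Krt8 was 3.79-fold lower in reporter-high cells, with -1.92 ± 0.33 (adjusted p = 0.00069 with limma). Krt19 averaged 11536 ± 7950.0 in reporter-high, 30759 ± 9079 in reporter-dim and 41482 ± 5665 in Sca1+ ZsGreen-negative cells (SD, n = 4 each). It fell by 2.07 ± 0.34, between the other keratins.

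**Figure D2:**
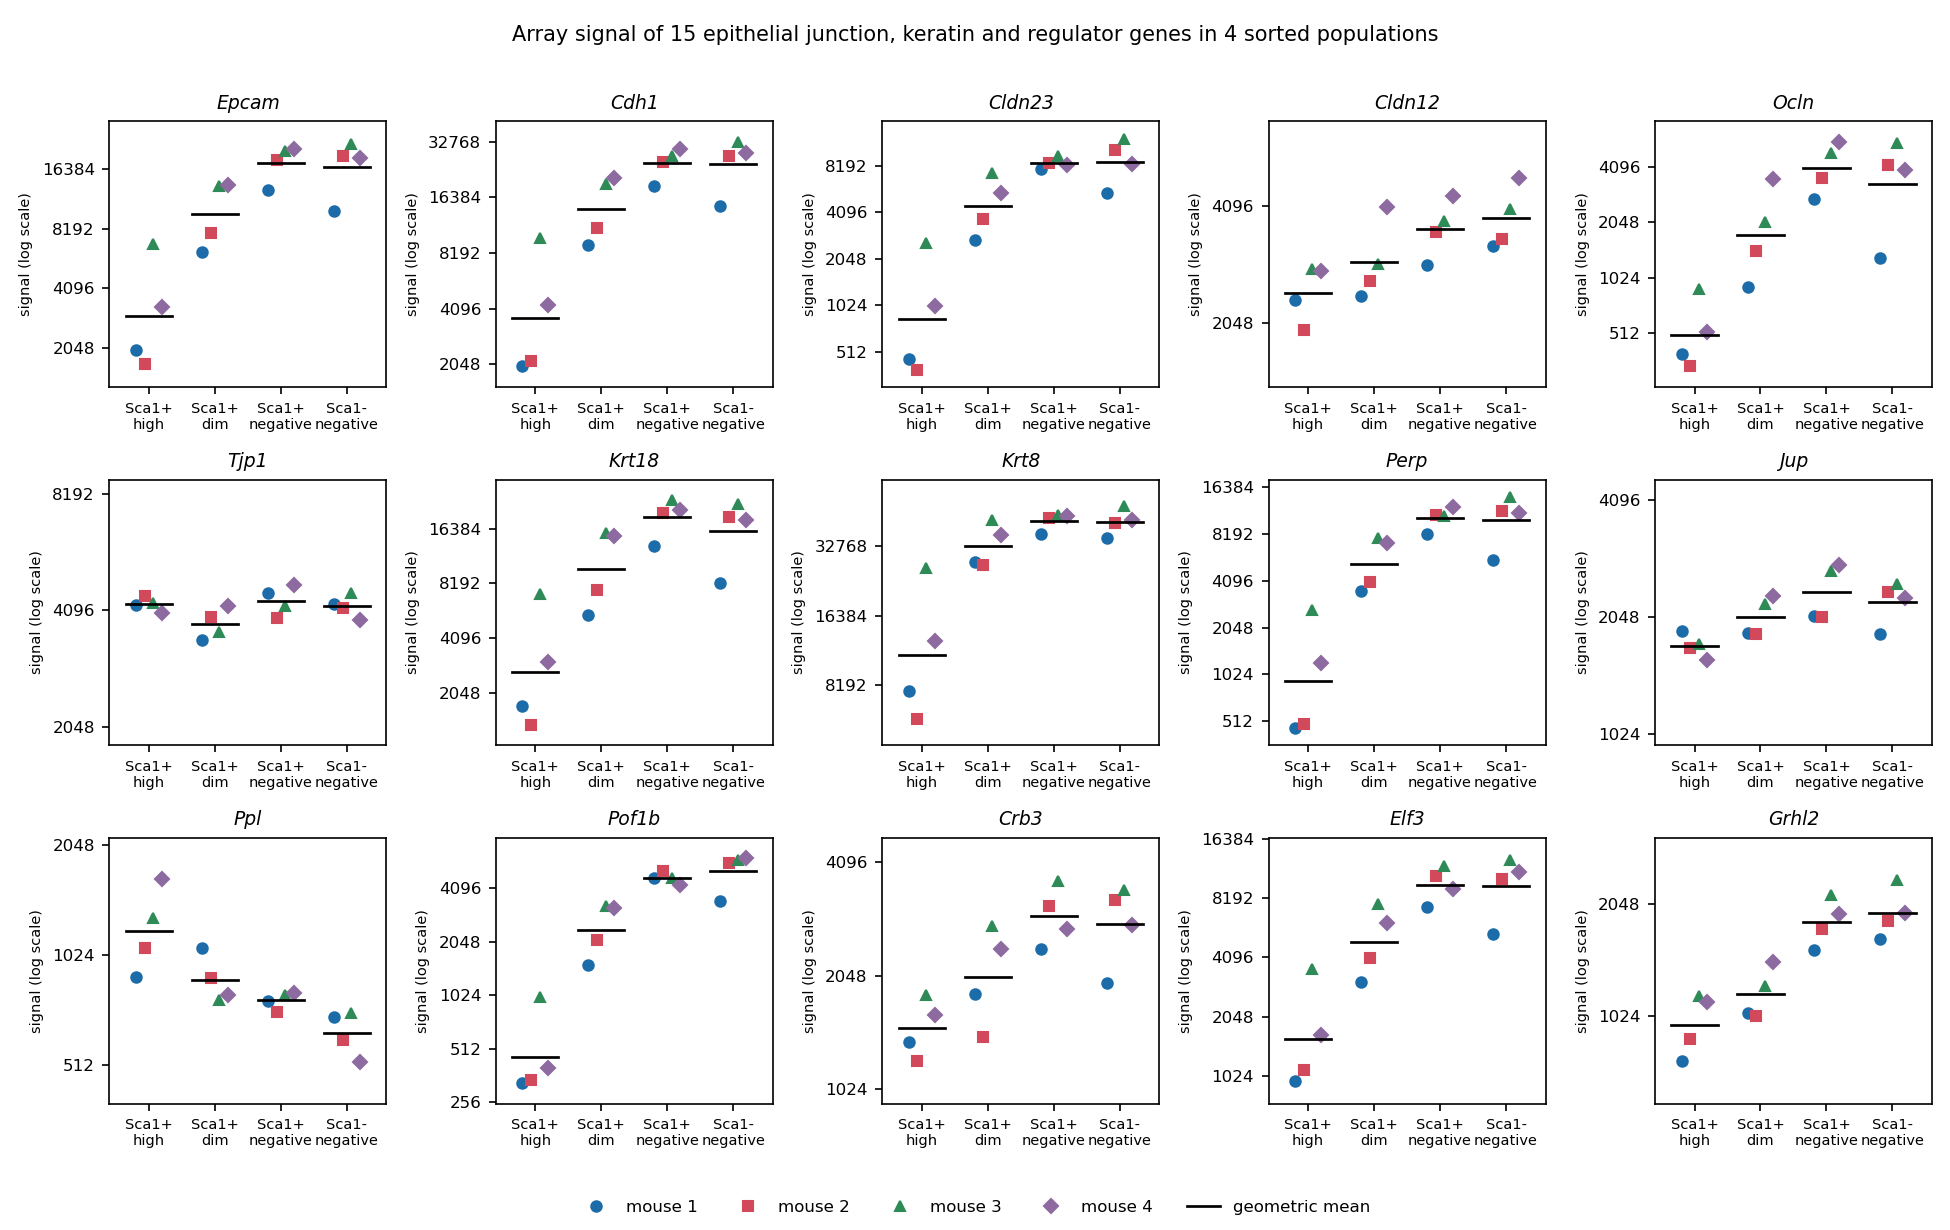
Array signal (log scale) of 15 members in reporter-high, reporter-dim, Sca1+ ZsGreen-negative and Sca1- ZsGreen-negative cells. Each point is 1 array, with a marker per mouse number, and the line is the geometric mean of the 4 arrays. Reporter-high arrays of Pof1b lie between 327 and 1008 and its Sca1+ ZsGreen-negative arrays between 4302 and 5170, Tjp1 is level across populations, and Ppl is highest in reporter-high cells.

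Of the 9 desmosome genes, 1 was Pkp3, and of the 8 others measured 7 fell in reporter-high against Sca1+ ZsGreen-negative cells and 1 rose. Perp, which encodes a membrane protein that desmosomes need to assemble, had the largest fitted difference of all members. Its signals were 465, 491, 2640 and 1219 in reporter-high and 3526, 3996, 7778 and 7153 in reporter-dim cells. They were 8234, 10846, 10664 and 12208 in Sca1+ ZsGreen-negative and 5539, 11549, 14127 and 11218 in Sca1- cells. Reporter-high arrays did not overlap with those of any other population. Perp was 11.2-fold lower in reporter-high cells, with -3.49 ± 0.47 (adjusted p = 0.000227 with limma).

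Dsg2 fell by 2.77 ± 0.46 and Dsc2, the other desmosomal cadherin gene, fell by 1.72 ± 0.26. Dsp, which encodes desmoplakin, the link from the desmosome to keratin, averaged 2410.0 ± 1651 in reporter-high, 7563 ± 2189 in reporter-dim and 12456 ± 1869 in Sca1+ ZsGreen-negative cells (SD, n = 4 each) and fell by 2.58 ± 0.36. The plakophilin gene Pkp2 had a narrow spread in reporter-high and in Sca1+ ZsGreen-negative cells. Its signals were 470, 444, 561 and 463 in reporter-high and 555, 643, 987 and 947 in reporter-dim cells. It had 1478, 1402, 1584 and 1548 in Sca1+ ZsGreen-negative and 1024, 1863, 2175 and 1962 in Sca1- cells. All Sca1+ populations were apart from one another except at the reporter-high array of mouse 3 and the reporter-dim array of mouse 1. Pkp2 fell by 1.64 ± 0.21.

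Jup encodes plakoglobin, which is found in adherens junctions as well as desmosomes. It had the smallest difference of the desmosome genes, with 1886, 1709, 1746 and 1586 in reporter-high and 1870, 1853, 2212 and 2320 in reporter-dim cells. It had 2058, 2056, 2702 and 2798 in Sca1+ ZsGreen-negative and 1859, 2383, 2489 and 2292 in Sca1- cells. All reporter-high arrays lay below the Sca1+ ZsGreen-negative arrays but overlapped with the other populations. The difference of -0.46 ± 0.12 passed (adjusted p = 0.0104 with limma), but did not without mouse 3, without mouse 4 or with hybridization control scaling.

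Ppl went the other way from its plakin partner gene Evpl. Both encode plakins best known from the cornified envelope of stratified epithelium. Ppl had 893, 1073, 1291 and 1652 in reporter-high and 1072, 889, 774 and 796 in reporter-dim cells. It had 767, 716, 794 and 807 in Sca1+ ZsGreen-negative and 694, 601, 712 and 522 in Sca1- cells. Each reporter-high array was above every ZsGreen-negative array, while the reporter-dim arrays overlapped with both Sca1+ neighbours. Ppl rose in reporter-high against Sca1+ ZsGreen-negative cells by 0.63 ± 0.16 (adjusted p = 0.00757 with limma), and had 0.65 ± 0.21 without mouse 2 (adjusted p = 0.0595 with limma). Evpl averaged 625 ± 33.9 in reporter-high, 798 ± 80.4 in reporter-dim and 1054 ± 169 in Sca1+ ZsGreen-negative cells (SD, n = 4 each) and fell by 0.74 ± 0.13.

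The 3 apical and polarity genes fell, with a median of -2.46. Pof1b encodes an actin-binding protein of epithelial tight junctions. Its signals were 327, 341, 1008 and 399 in reporter-high and 1526, 2098, 3260 and 3195 in reporter-dim cells. They were 4716, 5170, 4693 and 4302 in Sca1+ ZsGreen-negative and 3499, 5665, 5922 and 6080 in Sca1- cells. The Sca1+ populations were separate from one another, with no overlap. Pof1b was 10.2-fold lower in reporter-high than in Sca1+ ZsGreen-negative cells, with -3.36 ± 0.32, and it had the lowest adjusted p of the members (8.87e-05 with limma).

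Crb3, the Crumbs gene of the apical membrane, had the smallest difference of the polarity genes. Its signals were 1363, 1216, 1823 and 1605 in reporter-high and 1832, 1403, 2767 and 2412 in reporter-dim cells. They were 2415, 3135, 3661 and 2715 in Sca1+ ZsGreen-negative and 1958, 3249, 3463 and 2797 in Sca1- cells. Reporter-high arrays stayed below all ZsGreen-negative arrays. Crb3 fell by 0.99 ± 0.22 (adjusted p = 0.00333 with limma). Pard6b, a subunit of the Par complex, averaged 1038 ± 497 in reporter-high, 3130.0 ± 1441 in reporter-dim and 5439 ± 1440.5 in Sca1+ ZsGreen-negative cells (SD, n = 4 each), and fell by 2.46 ± 0.40.

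All 5 regulators fell, with a median of -2.10. Elf3 encodes an epithelial ETS transcription factor. Its signals were 963, 1095, 3564 and 1656 in reporter-high and 3081, 4076, 7622 and 6106 in reporter-dim cells. They were 7393, 10689, 11949 and 9103 in Sca1+ ZsGreen-negative and 5405, 10213, 12799 and 11186 in Sca1- cells. The reporter-high arrays lay below all ZsGreen-negative arrays, and only the array of mouse 3 reached into the reporter-dim range. Elf3 fell by 2.61 ± 0.39 (adjusted p = 0.000343 with limma). Grhl2, a grainyhead transcription factor gene known to activate junction genes, had signals of 774, 891, 1160 and 1115 in reporter-high and 1047, 1023, 1236 and 1431 in reporter-dim cells. They were 1544, 1758, 2165 and 1934 in Sca1+ ZsGreen-negative and 1655, 1845, 2382 and 1945 in Sca1- cells. Every reporter-high and reporter-dim array was below every ZsGreen-negative array. Grhl2 fell by 0.92 ± 0.15 (adjusted p = 0.000631 with limma). Of the epithelial splicing regulators, Esrp1 fell by 2.54 ± 0.38 and Esrp2 fell by 1.89 ± 0.28. St14, which encodes matriptase, a membrane serine protease of epithelia, fell by 2.10 ± 0.39.

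Reporter-dim cells lay between reporter-high and Sca1+ ZsGreen-negative cells. The means followed the order reporter-high below reporter-dim below Sca1+ ZsGreen-negative for 33 of 35 members, and for 30.3% of all genes. The exceptions were Ppl, with the opposite order, and Tjp1. In each of the 4 mice by label, 32 members had this order, against 7.40% of all genes. In mice 1, 3 and 4 alone, 32 members had it, against 8.56% of all genes.

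Of the members, 1 fell in reporter-dim against Sca1+ ZsGreen-negative cells and 0 rose, where 0.608% of all genes fell and 0.901% rose. The gene that fell was Pkp2, with -0.98 ± 0.21 (adjusted p = 0.0427 with limma). The median over members was -0.82, 21 of 35 had an unadjusted p under 0.05, against 21.6% of all genes, and 7 members had no overlap with lower reporter-dim arrays, against 5.12% of all genes. Epcam had -0.86 ± 0.39 (adjusted p = 0.217 with limma). With mouse as a replicate block, which takes out what the 4 arrays of 1 mouse number share, 26 members fell, where 7.78% of all genes fell and 6.18% rose. Under the block Epcam had -0.86 ± 0.23 (adjusted p = 0.0271) and Esrp1 -0.97 ± 0.18 (adjusted p = 0.00543), both with limma. Both keratins Krt8 and Krt19 were among the 9 members that did not pass, with adjusted p-values of 0.417 and 0.222 under the block. With the 2 male-pattern arrays of mouse 2 set as an animal of their own, 19 members fell, where 5.25% of all genes fell and 3.94% rose. Without mouse 2 and with no block, 0 passed, as for all but 0.0585% of all genes, 5 had an unadjusted p under 0.05, and the median was -0.70.

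Between reporter-high and reporter-dim cells 12 members fell and 0 rose, where 0.930% of all genes fell and 0.485% rose. The median was -1.47, against 0.01 over all genes, and 30 members had an unadjusted p under 0.05, against 16.9% of all genes. No overlap, with reporter-high lower, was seen for 12 members and for 4.46% of all genes. The members that fell were Epcam, Cdh1, Cldn3, Cldn7, Cldn8, Cldn23, Krt8, Krt19, Dsp, Perp, Pof1b and Elf3. Perp had the largest of these fitted differences, -2.51 ± 0.47 (adjusted p = 0.0228 with limma), and Cldn23 had -2.43 ± 0.47 (adjusted p = 0.0242 with limma). With mouse as a replicate block 28 members fell, where 4.67% of all genes fell and 2.82% rose, and with mouse 2 split into 2 animals 31 fell, where 5.66% fell and 5.31% rose. Without mouse 2 and with no block 0 passed, as for 0.00% of all genes, although the median stayed at -1.35 and 30 members had an unadjusted p under 0.05. Without mouse 4, 0 passed as well, again as for 0.00% of all genes. Under hybridization control scaling 19 members fell and 2, Ppl and Tjp1, rose, where 1.46% of all genes fell and 40.4% rose. The fitted step between reporter-high and Sca1+ ZsGreen-negative cells was divided differently by the dim cells in Krt8 and in Grhl2. Krt8 differed by -1.57 ± 0.33 on the log2 scale between reporter-high and reporter-dim cells and by -0.36 ± 0.33 between reporter-dim and Sca1+ ZsGreen-negative cells. Grhl2 differed by -0.27 ± 0.15 and by -0.65 ± 0.15 in the same comparisons. Its other, dimmer probe set had smaller differences, -0.02 and -0.32. The comparisons share the reporter-dim arrays, and the difference between these genes was not tested. The populations of the second step also differed in sex pattern. Male-pattern arrays were 2 of 4 in reporter-dim and 1 of 4 in Sca1+ ZsGreen-negative cells. In the latter that array was mouse 1, so sex and animal cannot be told apart there. With a sex covariate, added after seeing the data, the difference between reporter-dim and Sca1+ ZsGreen-negative cells was -0.19 ± 0.24 for Krt8, against -0.36 without it. For Krt19 it was -0.27 ± 0.21, against -0.47, and for Grhl2 -0.55 ± 0.09, against -0.65. The median over members was -0.57 in that fit, against -0.82, and 12 members fell, where 4.04% of all genes fell and 3.91% rose. The fitted differences of the first step were the same with and without the covariate, as reporter-high and reporter-dim cells had equal numbers of male-pattern arrays. The calls were not: 29 members fell there with the covariate, where 9.62% of all genes passed.

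No difference in these genes was detected between Sca1+ and Sca1- cells without the reporter. In Sca1+ against Sca1- ZsGreen-negative cells 0 of 35 members passed the limma test and 0 had an unadjusted p under 0.05, where 1.23% of all genes fell, 1.22% rose and 11.7% had an unadjusted p under 0.05. The median member difference was 0.03, and Epcam had 0.08 ± 0.39 (adjusted p = 0.98 with limma). The largest difference was in Cldn4, 0.61 ± 0.58. No member passed in this comparison with the replicate block, where 3.71% of all genes did. Nor did any pass without any 1 mouse, where 0.778% to 3.49% of all genes did. For Ppl the 4 Sca1+ arrays were 767, 716, 794 and 807, all above the 4 Sca1- arrays, as for 2.70% of all genes.

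Set against Sca1- cells, reporter-high cells had the same counts as against Sca1+ ZsGreen-negative cells, 33 lower and 1 higher, where 16.7% of all genes fell and 19.2% rose. The median was -2.11, Pof1b had the largest difference, -3.49 ± 0.32, and Ppl rose by 0.93 ± 0.16 (adjusted p = 0.0004 with limma). Without mouse 2, 31 members passed, where 22.4% of all genes did. Reporter-dim cells against Sca1- cells had 5 members that fell and 0 that rose, where 5.89% of all genes fell and 7.96% rose. These were Pkp2, Cldn15, Evpl, Pof1b and Grhl2, with Pkp2 at -1.15 ± 0.21 (adjusted p = 0.00268 with limma). With the replicate block 26 members passed, where 22.0% of all genes did. Under hybridization control scaling 3 passed, 2 lower and 1 higher, where 1.86% of all genes fell and 10.1% rose. Without mouse 2, 1 passed, where 3.59% of all genes did. These comparisons share arrays with those above and are not independent of them.

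The members varied more between mice than the median gene did, and mostly in the same direction. Within reporter-high cells the highest array was 2.62-fold above the lowest for the median member, against 1.20-fold for the median of all genes. The same ratio was 1.97 against 1.22 in reporter-dim, 1.56 against 1.24 in Sca1+ ZsGreen-negative and 2.14 against 1.28 in Sca1- cells. Mouse 3 was the highest reporter-high array for 31 of 35 members, and for 26.3% of all genes, and its median member lay 0.87 above the population mean on the log2 scale. Mouse 2 was the lowest reporter-high array for 20 members and mouse 1 for 13, each against 24.7% of all genes. In Sca1- cells mouse 1 was lowest for 32 members, against 38.2% of all genes, and mouse 3 highest for 31, against 25.3%. In every population the low array was mostly one with the male pattern. Such an array was the lowest for 33 of 35 members in reporter-high cells, where 49.5% of all genes had one lowest, and for 32 in reporter-dim cells, against 46.9%. It was the lowest for 29 members in Sca1+ ZsGreen-negative cells, against 33.1% of all genes, and for 32 in Sca1- cells, the array of mouse 1 named above. With a sex covariate 33 members fell and 1 rose in reporter-high against Sca1+ ZsGreen-negative cells, with a median of -1.89. Of all genes, 30.8% passed in that fit. The summed colonocyte markers ran the same way in reporter-high cells, since the highest sum of 66720 belonged to mouse 3 and the lowest of 16702 to mouse 2. The part of these markers and of sex in the spread of the members was not tested.

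**Figure D3:**
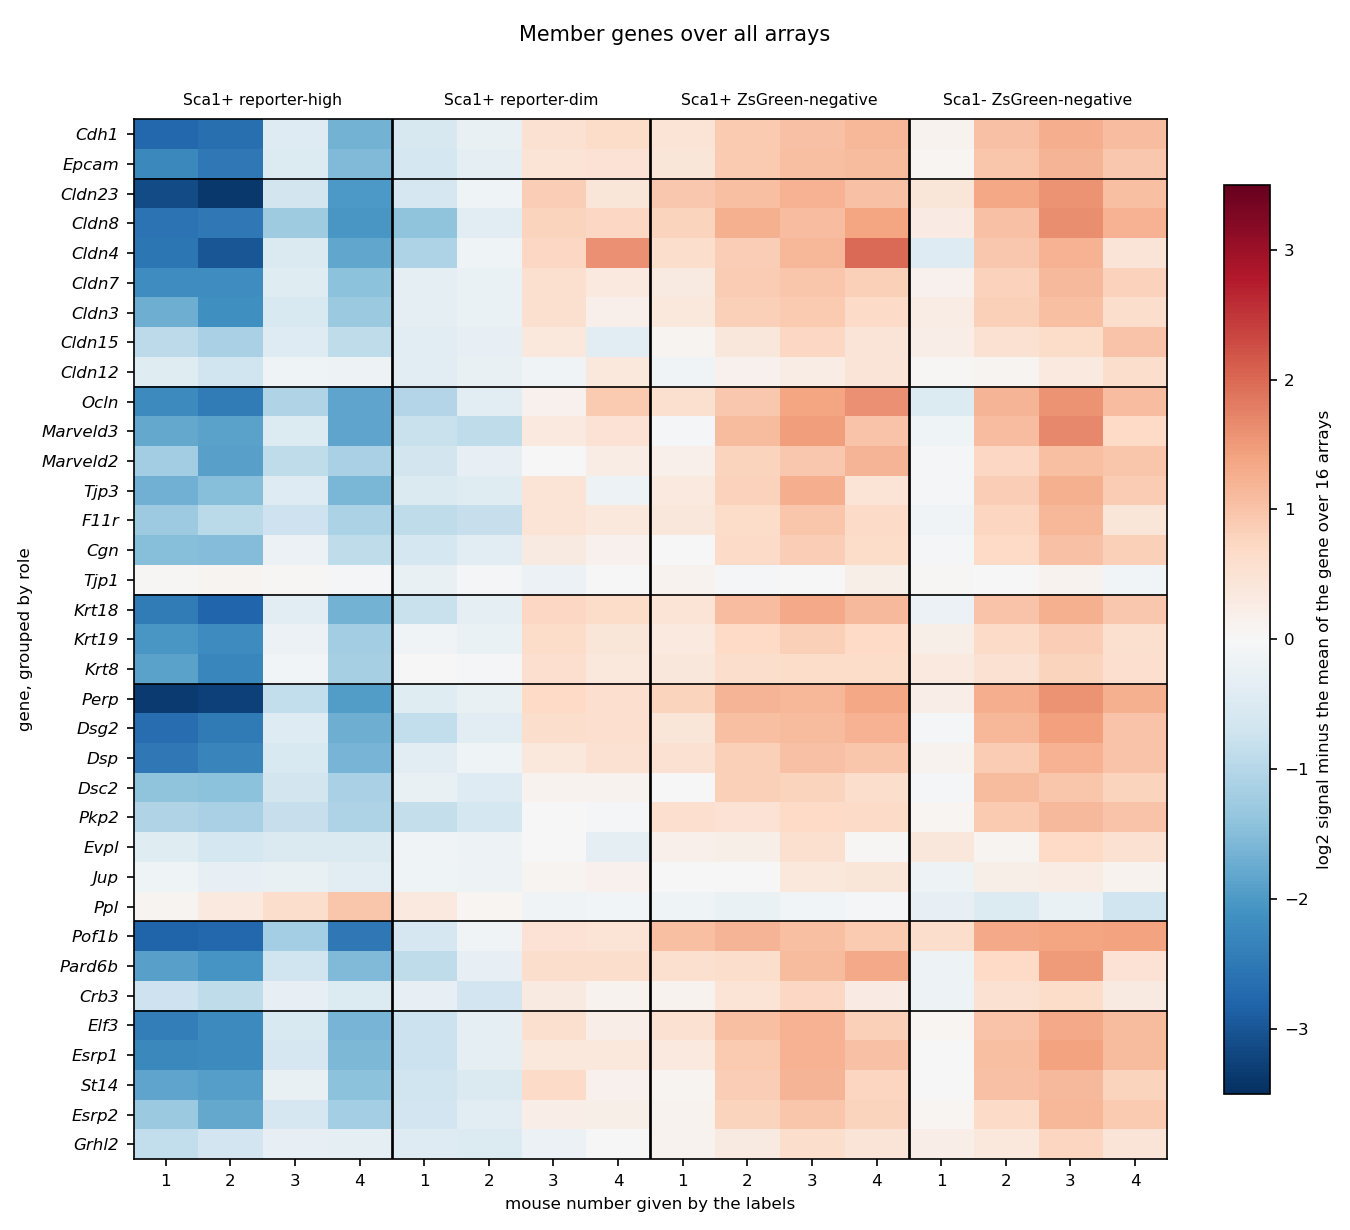
Log2 signal of each of the 35 members minus its mean over the 16 arrays. Rows are members by role, and columns are arrays by population and mouse number. Reporter-high columns are low for nearly every row but Ppl and Tjp1, and mouse 3 is the highest of them for 31 of 35 members.

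Genes with several probe sets gave a check of the measurement. Of the 35 members 11 had more than 1, with 27 probe sets between them. In each comparison other than Sca1+ against Sca1- ZsGreen-negative cells, all probe sets of a gene had the same sign for 11 of 11 members, and in that one for 9 of 11. Sizes differed more. The widest spread in reporter-high against Sca1+ ZsGreen-negative cells was that of Dsc2, with -1.72 for the brighter probe set, used above, and -3.26 for the dimmer.

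Related genes that are not members moved in both directions in reporter-high against Sca1+ ZsGreen-negative cells, where 13.9% of all genes fell and 17.0% rose. Among 23 other tight junction genes measured, 6 fell and 6 rose. Cldn2, a claudin that forms a pore for cations and water, had signals of 272, 356, 2187 and 623 in reporter-high and 3077, 8736, 8993 and 5386 in Sca1+ ZsGreen-negative cells. It fell by 3.32 ± 0.67 (adjusted p = 0.00198 with limma). Cldn1, a barrier claudin, had 1080, 1396, 1176 and 1617 in reporter-high, 668, 1136, 1002 and 868 in reporter-dim and 532, 302, 421 and 301 in Sca1+ ZsGreen-negative cells. Cldn1 rose by 1.78 ± 0.21 in reporter-high (adjusted p = 0.000142 with limma) and by 1.25 ± 0.21 in reporter-dim cells (adjusted p = 0.014 with limma). The adaptor gene Mpdz and the adhesion molecule gene Jam3 rose too, by 0.94 ± 0.18 and 0.89 ± 0.15.

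Of 15 other adherens junction genes 5 fell and 2 rose. Cdh17, which encodes the liver-intestine cadherin of gut epithelium, fell by 2.83 ± 0.42 and Cdh11, a cadherin gene of mesenchymal cells, rose by 0.88 ± 0.32 (adjusted p = 0.000346 and 0.0493 with limma). On the Cdh11 probe set mouse 1 was as high in Sca1+ ZsGreen-negative cells, 13305, as in reporter-high cells, 13157. Of 19 other keratin, desmosome and hemidesmosome genes 8 fell, led by the integrin gene Itga6 at -2.46 ± 0.42 and the keratin genes Krt7 at -2.38 ± 0.43 and Krt20 at -2.13 ± 0.47, and 1 rose, the plakin gene Dst. Of 15 other polarity genes 4 fell and 3 rose, among them Pard6g, a relative of Pard6b, by 0.94 ± 0.18.

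Epithelial regulators and repressors of junction genes moved in opposite directions in this comparison. Of 18 regulators and trafficking genes of epithelium outside the member list 15 fell and 0 rose, with a median of -1.74, among them Mal2 and Rab25 of apical transport, at -3.29 ± 0.48 and -2.74 ± 0.37, and the nuclear receptor gene Hnf4a at -2.69 ± 0.47. Of 7 transcription factor genes known to repress epithelial junction genes 7 rose and 0 fell, with a median of 0.95. Of all genes, 13.9% fell and 17.0% rose there. The fibroblast markers rose there too, 7 of 12, with a median of 0.59. Zeb2 had 3962, 4217, 3080 and 3690 in reporter-high, 3578, 3797, 2322 and 3205 in reporter-dim and 2100, 1296, 1491 and 1351 in Sca1+ ZsGreen-negative cells. It rose by 1.28 ± 0.25 in reporter-high cells (adjusted p = 0.0017 with limma), and had 1.05 ± 0.25 in reporter-dim cells (adjusted p = 0.0541 with limma). Zeb1 and Twist1 rose by 0.97 ± 0.27 and 0.95 ± 0.19 in reporter-high cells. The part of these repressors in the members' differences was not tested.

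**Figure D4:**
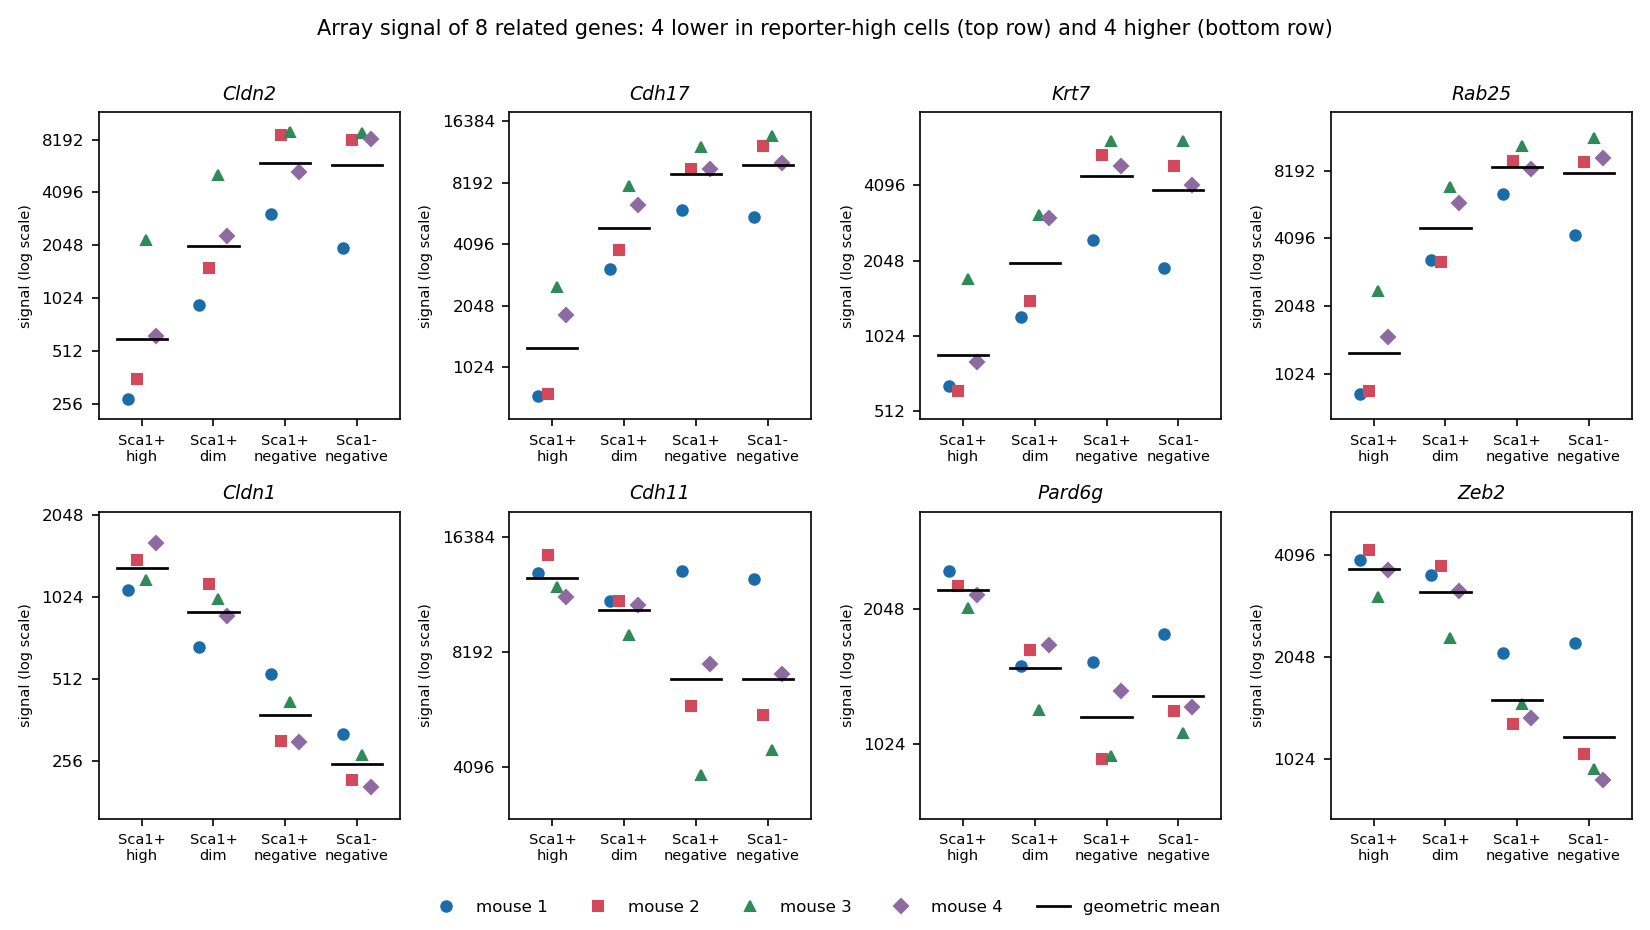
Array signal (log scale) of 8 related genes that are not members, in reporter-high, reporter-dim, Sca1+ ZsGreen-negative and Sca1- ZsGreen-negative cells. Points are single arrays with a marker per mouse number, and lines are geometric means. Cldn2, Cdh17, Krt7 and Rab25 are lowest in reporter-high cells, and Cldn1, Cdh11, Pard6g and Zeb2 are highest there.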

How the data were processed

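Sorted colon fibroblasts in 4 populations, from 4 mice by the labels, were measured on 16 Affymetrix arrays. Each array was made from 2 ng of amplified RNA per the labels' protocols. Per the submitters' processing notes the arrays were handled in Affymetrix Expression Console 1.1, with a summary method and normalization not given in the sources used here. What was deposited is a score per probe set and array, standardized to mean 0 and SD 1 over the 16 arrays, where the design had expected signals. Whole-number signals of 58 to 155937 were recovered for all 45141 probe sets, with recomputed scores within 1.39e-13 of those deposited. In a test on 1000 simulated probe sets 999 were recovered exactly and 1 up to a common factor. This used Python 3.11.15, numpy 2.4.6, pandas 2.3.3 and numba 0.67.0. Figures used matplotlib 3.10.9.

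Each gene was represented by its brightest single-gene probe set. RefSeq's table held the gene identifiers of all 35 measured members and changed 0 symbols. Log2 signals of all arrays were fitted with limma 3.58.1 in R 4.3.3, with 1 mean per population and no block, two-sided. Mouse as a block, left-out mice and arrays, other scalings, filters and probe set rules were alternatives. A sex covariate and a split of mouse 2 were added after seeing the data. By their labels, the 4 arrays of a mouse number come from 1 animal. Deviations from population means correlated at 0.265 on average between arrays of 1 mouse number, from -0.0795 in mouse 2 to 0.519 in mouse 1, against -0.0893 between numbers.

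The members and gene lists were chosen with earlier results of these data known, and no list was tested as a set. Every array's signals are given for Epcam, Cdh1, the members with the largest and smallest difference between reporter-high and Sca1+ ZsGreen-negative cells in each other role, and Ppl, which moved against the majority. Pkp2 was added after its values were seen. From each related list up to 3 rises and 3 falls are named.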

Additional observations from a re-analysis of the deposited data

Results flagged for a closer look

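In 5 of 140 groups of 4 arrays, 1 array stood apart from the other 3 by more than Dixon's 95% limit, and chance gives about 1 in 20 such groups. The arrays of mouse 3 were the high ones, at 2061 for Cldn15 in reporter-dim cells, 1092 for Marveld3 in reporter-high cells and 1525 for Tjp3 in reporter-high cells. The arrays of mouse 1 were the low ones, at 36966 for Krt8 in Sca1+ ZsGreen-negative cells and 3499 for Pof1b in Sca1- cells.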

How the results depend on the processing

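Counts of members that passed in reporter-high against either ZsGreen-negative population, in Sca1+ against Sca1- ZsGreen-negative cells and in the F test stayed within 1.5 times under all alternatives run. The other 3 comparisons did not. With the replicate block 26 members passed in reporter-dim against Sca1+ ZsGreen-negative cells, 28 in reporter-high against reporter-dim cells and 26 in reporter-dim against Sca1- cells. Of all genes, 7.78% fell and 6.18% rose in the first of these, 4.67% and 2.82% in the second, and 22.0% passed in the third. With mouse 2 split the counts in that order were 19, 31 and 18, and with a sex covariate 12, 29 and 13. With the split 5.25% of all genes fell and 3.94% rose in the first, 5.66% and 5.31% in the second. In the third 18.5% passed. With the covariate 4.04% of all genes fell and 3.91% rose in the first, 9.62% passed in the second and 17.9% in the third. Leaving out 1 mouse or 1 array gave 0 to 4, 0 to 25 and 1 to 18. The shares of all genes that passed were 0.0585% to 9.01%, 0.00% to 4.87% and 3.59% to 23.5%. In reporter-dim against Sca1+ ZsGreen-negative cells 2 passed with a filter on dim genes, 2 with quantile normalization, 0 with the mean of a gene's probe sets and 0 on the deposited scores. Of all genes, 2.05% passed with that filter, 1.71% with quantile normalization, 1.55% with that mean and 0.00% on those scores. In reporter-high against reporter-dim cells 21 passed with hybridization control scaling and 0 on the deposited scores. Of all genes, 1.46% fell and 40.4% rose under that scaling, and 0.00% passed on those scores. In reporter-dim against Sca1- cells 8 passed with the filter, 9 with quantile normalization, 3 with hybridization control scaling and 0 on the deposited scores. Of all genes, 16.9% passed there with the filter, 14.8% with quantile normalization and 5.03% on the deposited scores. Under hybridization control scaling 1.86% of all genes fell and 10.1% rose. The cause was not tested. The block changed no call of a member in the other comparisons.

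Of 2666 alternative values of 86 single-member results, 2482 kept their direction and side of the threshold, 183 no longer passed, and 1 turned its direction, Jup in reporter-high against Sca1- cells, at 0.0593 with hybridization control scaling.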

Other observations

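Markers of other cell types were also counted in reporter-high against Sca1+ ZsGreen-negative cells, where 13.9% of all genes fell and 17.0% rose. Of 8 endothelial markers 7 fell and 1 rose, and their summed signal was 7592 to 8781 in reporter-high and 8578 to 13679 in Sca1+ ZsGreen-negative cells. Of 7 leukocyte markers 3 fell and 0 rose, with sums of 4626 to 7787 in reporter-high and 8898 to 18895 in Sca1+ ZsGreen-negative cells, and Cd3e and Itgam were at array background in every population. Of 6 mesothelial markers 4 fell, and Msln was at array background in every population. The mesothelial list includes Krt7, which is also counted above among the keratin genes that fell. Of 6 enteroendocrine and tuft cell markers 3 fell and 1 rose, and of 5 crypt base markers 2 fell.

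Enteric glial and neuronal markers differed with Sca1 among ZsGreen-negative cells. In Sca1+ against Sca1- ZsGreen-negative cells 3 of 5 fell, Gfap by 1.53 ± 0.26, S100b by 1.49 ± 0.19 and Sox10 by 0.67 ± 0.16 on the log2 scale (adjusted p = 0.00324, 0.00036 and 0.0344 with limma), where 1.23% of all genes fell and 1.22% rose. S100b was at array background on every array of Sca1+ ZsGreen-negative and of reporter-high cells, so the size of its fall is understated. In reporter-high against Sca1+ ZsGreen-negative cells 0 of 5 passed with limma, and 1 had an unadjusted p under 0.05. Of all genes, 13.9% fell and 17.0% rose there. The junction gene Jam2 fell in Sca1+ against Sca1- ZsGreen-negative cells too, by 1.28 ± 0.21 (adjusted p = 0.00277 with limma), while 0 of the 35 epithelial junction and keratin genes passed there.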
